A study of Homo sapiens with 4 samples.

Results

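The 10 genes examined here are ATF4, the transcription factor of the integrated stress response, and 9 genes known as its targets or partners (DDIT3, ATF3, ASNS, PSAT1, PHGDH, CHAC1, TRIB3, SESN2 and DDIT4). They were listed by name, with earlier results of these data known. They were matched by symbol to the Ensembl identifiers of a table of 67008 genes, and all 10 were found in it. The table holds raw read counts from SAS cells, a human oral squamous carcinoma line, with 2 Ctrl and 2 shSTAU1 libraries. Both groups were infected with lentivirus, carrying an shRNA to luciferase in Ctrl and to STAU1, which encodes a binding protein of double-stranded RNA, in shSTAU1. The labels give the genotype of both groups as WT, and a single shRNA stands for each group. The labels name the mouse line C3H 10T1/2 beside an oral cancer cell type and a human organism, and the libraries were treated as SAS cells. All 9 squamous epithelial markers examined, KRT5, KRT14 and TP63 among them, had at least 10 counts in every library, whereas no leukocyte marker did. The summed level of 7 fibroblast markers was 17.3 and 22.6 CPM in Ctrl and 10.7 and 10.1 CPM in shSTAU1, with COL3A1, DCN, LUM and THY1 at 0 or 1 count in each library. Most of it was COL1A1, with 527 and 663 counts in Ctrl and 273 and 221 counts in shSTAU1, while COL1A2 had 40 and 55 counts in Ctrl and 75 and 128 counts in shSTAU1. Of 3 endothelial markers, VWF and CDH5 had at least 10 counts in every library and PECAM1 at most 1, and their summed level was 18.0 and 15.3 CPM in Ctrl and 17.0 and 7.44 CPM in shSTAU1. The part of these markers in the results was not tested. The summed level of the squamous markers was 7118 to 7551 CPM in Ctrl and 8703 to 11354 CPM in shSTAU1, but they did not all move together. KRT5 had 108820 and 110892 counts in Ctrl and 191041 and 172929 counts in shSTAU1. DSG3 had 2469 and 1732 counts in Ctrl and 1410 and 1196 counts in shSTAU1. The groups overlapped in CDH1, with 29522 and 23204 counts in Ctrl and 28771 and 16751 counts in shSTAU1.

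The integrated stress response begins when 1 of 4 kinases phosphorylates the initiation factor eIF2 alpha, in answer to amino acid shortage, misfolded protein in the endoplasmic reticulum, double-stranded RNA or heme and mitochondrial stress. General translation is then lowered while the ATF4 mRNA is translated more, so that ATF4 is set largely at the level of protein, which RNA counts do not measure. ATF4 binds a composite C/EBP-ATF element and raises genes for amino acid synthesis, uptake and tRNA charging, together with further regulators such as DDIT3 (CHOP), TRIB3 and CHAC1. In cancer cells this programme is best known for supplying serine, asparagine and cystine.

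The core of that element was searched as the letters TGATGNAA on both strands, in windows from 250 bases before to 50 bases after each RefSeq transcription start (GRCh38.p14). It was found in 3.62% of 35116 windows, and in at least 1 window of 4.46% of 27305 genes. All 10 members matched at least 1 window, and 3 of them (ASNS, CHAC1 and ATF3) held the letters. The 3 member windows are shown because they carry the known binding letters of ATF4. Beside them stand 4 of the 13 other pathway genes with the letters, picked after their values were seen: AARS1, SLC7A1 and SLC1A5, which were lower in both shSTAU1 libraries, and GARS1, which was near level. Each is written 5′ to 3′ along its gene, with the matched bases in capitals, and CHAC1, AARS1 and GARS1 hold them on the opposite strand.
ASNS: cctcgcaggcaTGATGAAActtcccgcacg
CHAC1: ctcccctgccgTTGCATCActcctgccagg
ATF3: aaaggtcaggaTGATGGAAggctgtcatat
AARS1: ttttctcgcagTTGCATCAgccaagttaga
SLC7A1: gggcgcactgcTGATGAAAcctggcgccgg
SLC1A5: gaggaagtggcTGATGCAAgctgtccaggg
GARS1: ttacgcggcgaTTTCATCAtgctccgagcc
They lie at chr7:97872458-97872487 (minus strand) for ASNS, chr15:40953251-40953280 (plus) for CHAC1, chr1:212565205-212565234 (plus) for ATF3, chr16:70289675-70289704 (minus) for AARS1, chr13:29595663-29595692 (minus) for SLC7A1, chr19:46784893-46784922 (minus) for SLC1A5 and chr7:30594834-30594863 (plus) for GARS1. A match is a description of letters and not of binding, and the window misses elements that lie farther from the start.

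The libraries held 32206655 to 36301574 counts. After removal of genes with low counts, 14303 genes were compared by the quasi-likelihood test of edgeR, with p-values adjusted after Benjamini and Hochberg over all of them. Levels are given as CPM, the counts relative to the TMM-scaled library size, and fold changes as log2 of shSTAU1 over Ctrl with their standard error (SE). Of the tested genes, 372 (2.60%) had an adjusted p under 0.05, 161 higher and 211 lower in shSTAU1. The split was 132 higher and 272 lower with library size in place of TMM, and 773 higher and 676 lower with DESeq2. STAU1, the targeted gene, had 249 and 251 CPM in Ctrl and 41.6 and 41.5 CPM in shSTAU1, and fell by 2.59 on the log2 scale (SE 0.13, edgeR adjusted p = 0.00103). As no source used here says that the libraries came from separate cultures, the p-values measure only the spread between these libraries, and with 2 against 2 an exact permutation test cannot give a two-sided p below 0.333. In such bulk samples, fewer cells with a transcript and less of it per cell cannot be told apart.

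Of the 10 members, 8 passed the filter on low counts, and ASNS and SESN2 did not. None of the 8 reached an adjusted p under 0.05 in edgeR's test, against 2.60% of all tested genes (1.48% lower). At an unadjusted p under 0.05 there were 5 members, all lower in shSTAU1 (PSAT1, TRIB3, CHAC1, ATF3 and PHGDH), where 11.6% of tested genes were lower by that measure and 12.9% higher. In 6 of the 8, these 5 and DDIT4, both shSTAU1 libraries lay below both Ctrl libraries, as in 28.0% of tested genes, and no member had both above, as in 28.5%. With DESeq2, 3 members (PSAT1, TRIB3 and CHAC1) had an adjusted p under 0.05, all lower, beside 4.73% of all genes in that direction. With limma-voom no member did, beside 1.46%. The median log2 fold change of the 8 members was -0.68, and that of all tested genes was 0.0059. As the members were chosen with earlier results of these data known, no test was made over them as a list. Without ATF4, the other 7 ran from -1.32 to -0.22 with a median of -0.83.

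**Figure D1:**
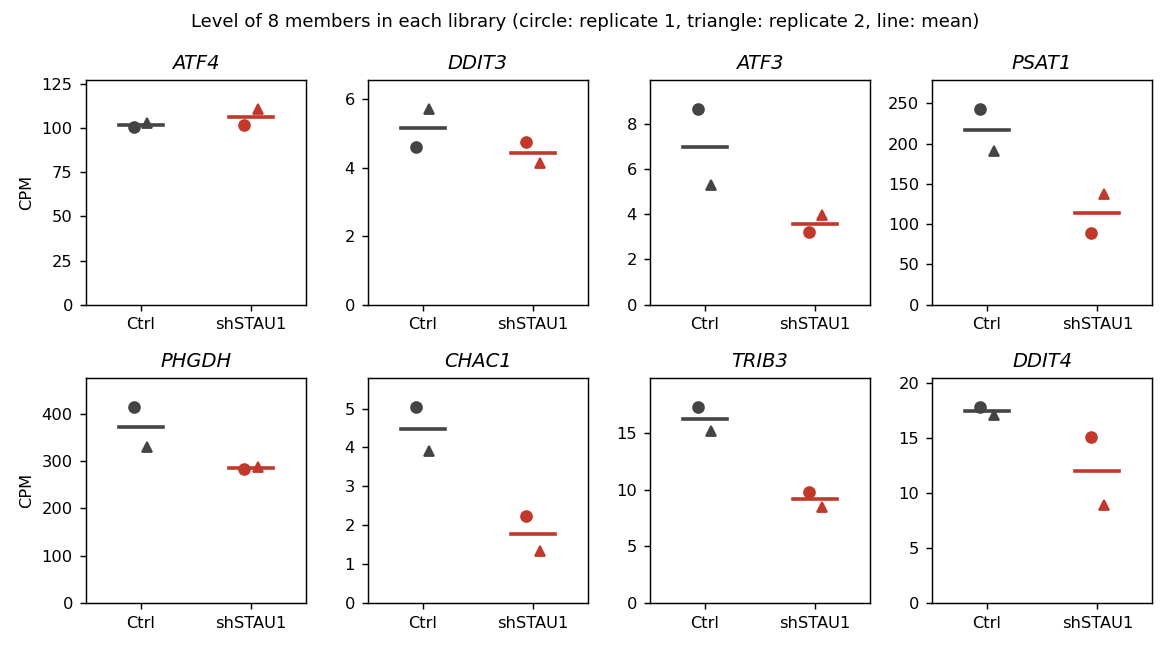
Level of the 8 tested members in each library, as CPM from 0 on a linear axis (circles, replicate 1; triangles, replicate 2; horizontal lines, group means; n = 2 a group). ATF4 was near 100 CPM in all 4 libraries, while both shSTAU1 points lie below both Ctrl points for ATF3, PSAT1, PHGDH, CHAC1, TRIB3 and DDIT4.

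Among the transcription factors, ATF4 (ENSG00000128272, chromosome 22 of GRCh38 from 39519695 to 39522685, plus strand) had 101 and 103 CPM in the Ctrl libraries and 102 and 111 CPM in the shSTAU1 libraries. The groups overlapped, and the log2 fold change was 0.059 (SE 0.13, edgeR adjusted p = 0.810). It turned slightly negative when transcript length and GC content were corrected for (-0.028) and without shSTAU1 replicate 2 (-0.025). DDIT3 (ENSG00000175197, chromosome 12 from 57516588 to 57521737, minus strand) encodes CHOP, a bZIP factor that drives death genes under prolonged stress. It had 4.61 and 5.71 CPM in Ctrl and 4.74 and 4.13 CPM in shSTAU1, so that the lower Ctrl library lay within the shSTAU1 range. Its log2 fold change was -0.22 (SE 0.27, adjusted p = 0.652). DDIT3 overlaps MARS1 and MBD6 on the opposite strand, and on the same strand MIR616, with 16 to 89 counts, and a gene without a symbol (ENSG00000285133), with 0 counts, lie within it. As the strand setting of the counting is not given in the sources used here, reads of these genes cannot be told apart from those of DDIT3.

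ATF3 (ENSG00000162772, chromosome 1 from 212565334 to 212620777, plus strand) encodes a stress-induced bZIP factor that in turn represses many stress genes. It had 8.65 and 5.31 CPM in Ctrl and 3.19 and 3.96 CPM in shSTAU1. Both shSTAU1 libraries were below both Ctrl libraries, but Ctrl replicate 1 stood 0.70 above replicate 2 on the log2 scale. The log2 fold change was -0.97 (SE 0.32, adjusted p = 0.121, unadjusted p = 0.0168), and -0.59 (adjusted p = 0.572) without Ctrl replicate 1.

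Among the enzymes, PSAT1 (ENSG00000135069, chromosome 9 from 78297143 to 78330093, plus strand), the aminotransferase of the second step of serine synthesis, had 243 and 191 CPM in Ctrl and 88.4 and 138 CPM in shSTAU1. Its mean in shSTAU1 was 52.0% of that in Ctrl, with the groups apart although each held a wide spread. The log2 fold change was -0.94 (SE 0.22, edgeR adjusted p = 0.0655), with an adjusted p of 0.000763 from DESeq2 and 0.0646 from limma-voom. PHGDH (ENSG00000092621, chromosome 1 from 119648411 to 119744226, plus strand) catalyses the first step of the same pathway. It had 413 and 329 CPM in Ctrl and 283 and 288 CPM in shSTAU1. The nearest libraries of the groups were only 0.19 apart on the log2 scale, and the log2 fold change was -0.38 (SE 0.14, adjusted p = 0.163), and -0.22 without Ctrl replicate 1. PSPH, which completes serine synthesis, was not among the lower genes, with 39.8 and 41.1 CPM in Ctrl and 39.5 and 52.6 CPM in shSTAU1.

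CHAC1 (ENSG00000128965, chromosome 15 from 40952962 to 40956519, plus strand), which degrades glutathione, had the most negative fold change of the 8. It had 5.03 and 3.91 CPM in Ctrl and 2.24 and 1.33 CPM in shSTAU1, from 169, 128, 78 and 47 counts. Every shSTAU1 value was below every Ctrl value, and the mean was 40.0% of the Ctrl mean. The log2 fold change of -1.32 (SE 0.36, edgeR adjusted p = 0.0849) was lower than that of all but 3.61% of tested genes. The paralog CHAC2 stood in the other direction, with 3.87 and 5.86 CPM in Ctrl and 7.58 and 10.4 CPM in shSTAU1, a log2 fold change of 0.89 (SE 0.30, adjusted p = 0.124).

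Among the genes whose products dampen signalling, TRIB3 (ENSG00000101255, chromosome 20 from 362835 to 397559, plus strand) encodes a pseudokinase that inhibits AKT and feeds back on ATF4 and CHOP. It had 17.3 and 15.2 CPM in Ctrl and 9.85 and 8.52 CPM in shSTAU1. The groups were apart by 0.63 at their nearest libraries, more than the libraries within either group (0.18 and 0.21 on the log2 scale). The log2 fold change was -0.83 (SE 0.20, edgeR adjusted p = 0.0683 and 0.0143 from DESeq2). DDIT4 (ENSG00000168209, chromosome 10 from 72273920 to 72276036, plus strand) encodes REDD1, an inhibitor of mTORC1 that hypoxia and glucocorticoids also induce. It had 17.8 and 17.1 CPM in Ctrl and 15.1 and 8.94 CPM in shSTAU1. The difference rests mainly on shSTAU1 replicate 2, as the log2 fold change of -0.54 (SE 0.26, adjusted p = 0.251) was -0.23 (adjusted p = 0.572) without it and -0.96 (adjusted p = 0.00359) without shSTAU1 replicate 1.

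**Figure D2:**
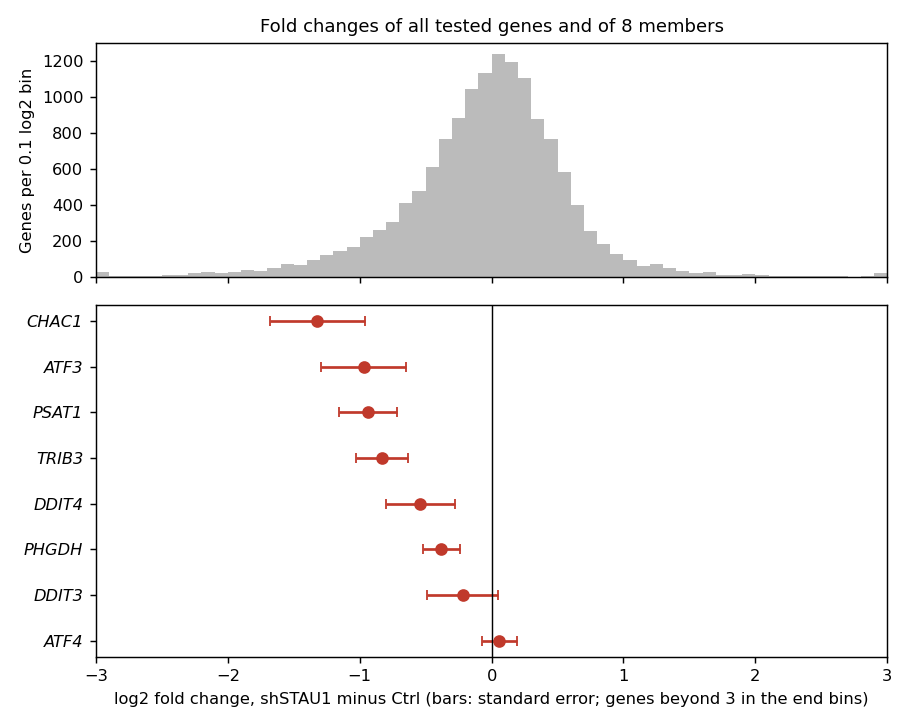
Log2 fold change (shSTAU1 minus Ctrl) of all 14303 tested genes as a histogram (upper panel, genes per bin of 0.1) and of the 8 tested members with their standard errors (lower panel). Members run from CHAC1 at -1.32 to ATF4 at 0.059, and 7 of the 8 lie below 0.

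ASNS (ENSG00000070669, chromosome 7 from 97852118 to 97872542, minus strand), the asparagine synthetase and a classical ATF4 target, had 4 and 6 counts in Ctrl and 5 and 0 counts in shSTAU1. With these counts no difference was detectable. A processed transcript without a symbol (ENSG00000284707, from 97851688 to 97972985 on the same strand) covers the whole of ASNS in GENCODE 29 and had 0 to 2 counts. SESN2 (ENSG00000130766, chromosome 1 from 28259527 to 28282491, plus strand), a leucine sensor that restrains mTORC1, had 0 counts in each library, which allows up to 3 counts or 0.0849 to 0.0916 CPM. TUBB, a tubulin gene in general use that was picked after its values were seen, was likewise listed with 0 counts in the 4 libraries, and HYOU1, a chaperone of the endoplasmic reticulum, with 1 count in all. These values therefore describe what was counted on the gene, and how the counting treated reads shared between entries was not tested. SESN1, the paralog of SESN2, had 308 and 348 counts in Ctrl and 379 and 390 counts in shSTAU1.

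Levels between genes were compared per kilobase of the reference transcript (RPKM, on the same scaling). In Ctrl the order was PHGDH (143), PSAT1 (99.3), ATF4 (50.5), DDIT4 (9.97), TRIB3 (6.51), DDIT3 (5.49), ATF3 (3.44) and CHAC1 (2.86), with ASNS at 0.0641. Over the Ctrl libraries, neighbours in this order did not overlap, except that ATF3 (2.61 to 4.26 RPKM) overlapped CHAC1 (2.51 to 3.22 RPKM). In shSTAU1 the order was PHGDH (111), ATF4 (52.6), PSAT1 (51.7), DDIT4 (6.87), DDIT3 (4.72), TRIB3 (3.68), ATF3 (1.76) and CHAC1 (1.14). Here PSAT1 and ATF4 overlapped (40.4 to 63.0 RPKM for PSAT1 and 50.3 to 54.9 RPKM for ATF4).

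The libraries of a group were not equal for these genes. Ctrl replicate 1 was above Ctrl replicate 2 in 6 of the 7 tested members other than ATF4, by 0.059 (DDIT4) to 0.70 (ATF3) on the log2 scale, and below it in DDIT3 (-0.31). In shSTAU1 the members split, with PSAT1 lower in replicate 1 (-0.64) and CHAC1 and DDIT4 lower in replicate 2 (0.73 and 0.75 above it in replicate 1). Averaged over the 7 genes, each centred on its own mean log2 CPM, the libraries stood at 0.49 and 0.25 in Ctrl and at -0.31 and -0.44 in shSTAU1.

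Upstream of ATF4, the kinases did not share a direction. EIF2AK1, the kinase that senses heme and relays mitochondrial stress, had 208 and 193 CPM in Ctrl and 292 and 283 CPM in shSTAU1, a log2 fold change of 0.52 (SE 0.12, edgeR adjusted p = 0.0654). EIF2AK4 (GCN2), which senses uncharged tRNA, was at 0.25 (adjusted p = 0.305), while EIF2AK2 (PKR), which senses double-stranded RNA, and EIF2AK3 (PERK) were at -0.037 and -0.064, both with a sign that changed between alternatives. All 3 catalytic subunits of protein phosphatase 1 were higher in both shSTAU1 libraries, as were 28.5% of all tested genes. Their log2 fold changes were 0.45 for PPP1CA (edgeR adjusted p = 0.0924), 0.51 for PPP1CB (adjusted p = 0.0790) and 0.63 for PPP1CC (adjusted p = 0.0766). The subunits that direct this phosphatase to eIF2 alpha were lower in both shSTAU1 libraries, as were 28.0% of all tested genes. The stress-induced PPP1R15A was at -0.21 (adjusted p = 0.407) and the constitutive PPP1R15B at -0.34 (adjusted p = 0.198). Of 8 subunits of eIF2 and its exchange factor eIF2B, none had an unadjusted p under 0.05, where 11.6% of all tested genes were lower and 12.9% higher. The median log2 fold change of the 8 was 0.22.

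Further genes of the pathway were taken from lists written by role. Beside target genes, these hold the eIF2 alpha kinases, the eIF2, eIF2B and phosphatase subunits and partner factors. They are thus not a list of ATF4 targets alone. Over 69 other genes of the pathway, 64 were tested, 1 passed (STC2, lower), and at an unadjusted p under 0.05 there were 10 higher and 14 lower genes, where 12.9% and 11.6% of all tested genes were. The groups were apart in the lower direction in 20 of the 64 and in the higher direction in 17, near the shares of all tested genes (28.0% and 28.5%). Their median log2 fold change was -0.015, near that of all tested genes. By list, the medians ran from -0.38 (amino acid transporters) to 0.45 (eIF2 alpha phosphatase subunits). STC2, a secreted glycoprotein induced by stress of the endoplasmic reticulum, had 58.8 and 57.4 CPM in Ctrl and 31.4 and 21.7 CPM in shSTAU1, and fell by 1.13 on the log2 scale (SE 0.19, edgeR adjusted p = 0.0360). It lost the threshold without a filter on low counts (adjusted p = 0.0991) and with the length and GC correction (adjusted p = 0.0518).

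The 8 amino acid transporters had a median log2 fold change of -0.38, with 5 apart in the lower direction and 1 in the higher, beside 28.0% and 28.5% of all tested genes. SLC7A11, the cystine importer, had 163 and 111 CPM in Ctrl and 82.9 and 61.9 CPM in shSTAU1, a log2 fold change of -0.92 (SE 0.22, adjusted p = 0.0655). SLC7A1, for cationic amino acids, was at -0.43 (adjusted p = 0.0849) and SLC1A5, for glutamine, at -0.44 (adjusted p = 0.144). SLC7A5, the leucine exchanger, stood apart from them, with 2038 and 2183 CPM in Ctrl and 2531 and 2729 CPM in shSTAU1 (log2 fold change 0.32, adjusted p = 0.158).

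The enzymes of serine, proline and one-carbon metabolism outside the members were divided. Of 10 tested, 3 were lower and 3 higher at an unadjusted p under 0.05 (11.6% and 12.9% of all tested genes), with a median of 0.10. ALDH1L2, a mitochondrial folate enzyme, had 2772 and 1575 counts in Ctrl and 1180 and 778 counts in shSTAU1 (log2 fold change -1.22, adjusted p = 0.0664). GPT2, which makes alanine in mitochondria, was at -0.72 (adjusted p = 0.0592) and PYCR1, of proline synthesis, at -0.48 (adjusted p = 0.129). In the other direction, ASS1, which joins citrulline and aspartate in arginine synthesis, had 130 and 98.4 CPM in Ctrl and 379 and 182 CPM in shSTAU1 (log2 fold change 1.30, adjusted p = 0.0685). The value was 0.68 without shSTAU1 replicate 1, the higher library, and that of ALDH1L2 was -0.80 without Ctrl replicate 1. ALDH18A1, which precedes PYCR1 in proline synthesis, was at 0.34 (adjusted p = 0.136), and the folate enzyme MTHFD2 at 0.37 (adjusted p = 0.177).

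Of 9 genes for tRNA charging and export, 2 had an unadjusted p under 0.05, both lower, where 11.6% of all tested genes were lower and 12.9% higher. AARS1, the alanyl-tRNA synthetase, had 986 and 935 CPM in Ctrl and 698 and 676 CPM in shSTAU1 (log2 fold change -0.48, SE 0.12, adjusted p = 0.0684), and MARS1 was at -0.32 (adjusted p = 0.165). GARS1 (-0.063) and SARS1 (0.078) were near 0. Among partner factors, 2 of 9 tested were lower and 2 higher at an unadjusted p under 0.05 (11.6% and 12.9% of all tested genes), with a median of 0.20. JUN was at -0.56 (adjusted p = 0.0976) and NFE2L1 at -0.44 (adjusted p = 0.112), while CEBPA was at 0.89 (adjusted p = 0.143) and NFE2L2, of the antioxidant response, at 0.37 (adjusted p = 0.183). CEBPB, a dimer partner of ATF4, had 14.0 and 13.6 CPM in Ctrl and 19.4 and 12.3 CPM in shSTAU1 with the groups overlapping.

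**Figure D3:**
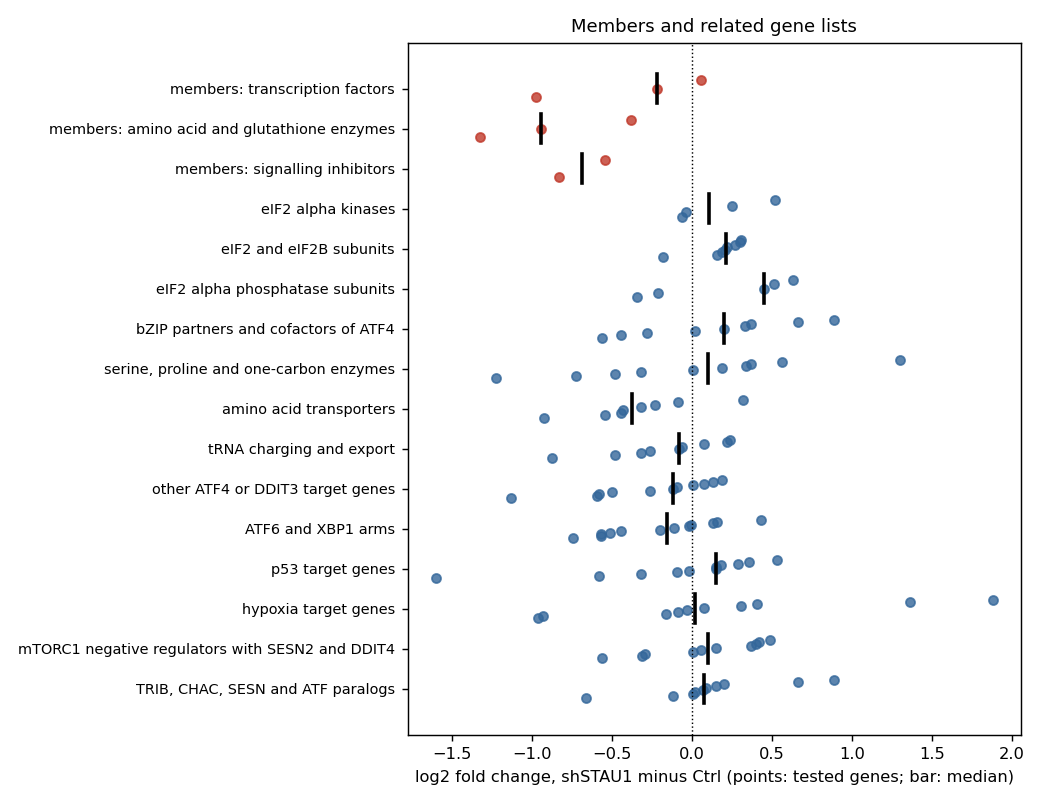
Log2 fold change (shSTAU1 minus Ctrl) of each tested gene in the member groups (red) and the related lists (blue), with the list median as a bar. The medians of the member groups are -0.22, -0.94 and -0.68, and those of the other lists run from -0.38 (amino acid transporters) to 0.45 (eIF2 alpha phosphatase subunits).

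Members that other pathways also control were set beside genes of those pathways. In the ATF6 and XBP1 arms of the unfolded protein response, 4 of 12 tested genes had an unadjusted p under 0.05, all lower. By that measure 11.6% of all tested genes were lower and 12.9% higher. Among the 4, the chaperone HSPA5 had 603 and 508 CPM in Ctrl and 339 and 409 CPM in shSTAU1 (log2 fold change -0.57, adjusted p = 0.0769). SEL1L, of degradation from the endoplasmic reticulum, was at -0.57 (adjusted p = 0.0656). XBP1 itself was at -0.51 (adjusted p = 0.148). The median of the 12 was -0.16. Of them, 5 were apart in the lower direction and 3 in the higher (28.0% and 28.5% of all tested genes). Among 10 hypoxia targets, for comparison with DDIT4, 2 were lower and 2 higher at an unadjusted p under 0.05. VEGFA, which ATF4 also controls, had 214 and 166 CPM in Ctrl and 113 and 81.8 CPM in shSTAU1 (log2 fold change -0.96, adjusted p = 0.0510). EGLN3 was at -0.93 (edgeR adjusted p = 0.168). CA9 was at 1.88 (edgeR adjusted p = 0.146), with 0.684 and 0.519 CPM in Ctrl and 3.59 and 0.877 CPM in shSTAU1. NDRG1 was higher mainly in shSTAU1 replicate 1, with 87.5 and 76.6 CPM in Ctrl and 326 and 95.4 CPM in shSTAU1 (adjusted p = 0.134, log2 fold change 1.36, and 0.22 without that library), and the list's median was 0.022. Of 11 tested p53 targets, 1 had an unadjusted p under 0.05 (GADD45A, a growth arrest gene, at -0.58, adjusted p = 0.199), with a median of 0.15. Other negative regulators of mTORC1 had a median of 0.10, and CASTOR2, an arginine sensor (0.42, adjusted p = 0.182), and NPRL3, of the GATOR1 complex (0.40, adjusted p = 0.192), had unadjusted p under 0.05 in the higher direction, opposite to DDIT4.

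The windows with the ATF4 letters were then compared with the fold changes, a comparison chosen after the values were known. Letters of the core element were held by 13 of 56 other pathway genes with a window, most in amino acid transporters (4 of 7) and tRNA charging and export (5 of 9). Of all genes with a window 4.46% held them, and of tested genes with one 2.75%. Over the members and pathway genes together, 14 tested genes had the letters. Of these, 13 had a fitted value below 0, as had 7092 of all 14303 tested genes. Of the 14, 9 were apart in the lower direction and none in the higher (28.0% and 28.5% of all tested genes), and the median log2 fold change was -0.39. The 46 tested genes without them had a median of 0.068, with 12 apart in the lower and 14 in the higher direction. PSAT1, TRIB3 and STC2 were among those without, and JDP2, with low counts, was the only gene with the letters above 0 (0.66). The groups of 14 and 46 genes also differ in kind of gene. With a window, 0 of 3 eIF2 alpha kinases and 0 of 7 eIF2 and eIF2B subunits held the letters. The medians of those lists were 0.11 and 0.22, and their part in the contrast was not tested. Across all tested genes with a window, the median was -0.064 for the 274 genes with the letters and 0.034 for the 9702 without, and it was -0.041 for the 260 genes with them outside the members and pathway lists. Of the 274 genes, 157 had a fitted value below 0, 84 were apart in the lower direction and 67 in the higher. No test was made of these groups, as the lists were written from knowledge of ATF4 targets and with results of these data known.

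**Figure D4:**
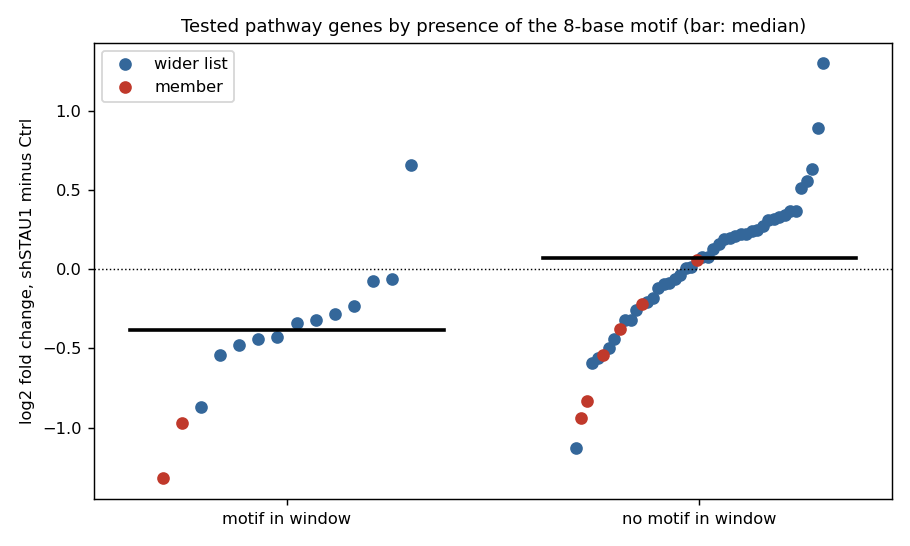
Log2 fold change (shSTAU1 minus Ctrl) of tested members (red) and other pathway genes (blue), sorted within each group, for genes with TGATGNAA in the promoter window and those without. The bars are medians, -0.39 for 14 genes and 0.068 for 46 genes. The groups also differ in kind of gene.

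The members' fold changes varied with the processing more in their p-values than in their direction. Each of ATF3, PSAT1, PHGDH, CHAC1, TRIB3, DDIT4 and DDIT3 was below 0 in every fit, PSAT1 from -1.32 to -0.66, CHAC1 from -1.75 to -1.01 and TRIB3 from -0.93 to -0.74. An adjusted p under 0.05 was given to 4 members without shSTAU1 replicate 1 (CHAC1, DDIT4, PSAT1 and TRIB3) and to 3 without shSTAU1 replicate 2 (ATF3, PSAT1 and TRIB3), where 8.41% and 5.97% of all genes were lower with one. Without Ctrl replicate 1 no member had one, and without Ctrl replicate 2 PSAT1 alone did, beside 1.05% and 1.10% of genes lower. No member had one with library size in place of TMM (1.90% of genes lower), without the filter on low counts (0.0363%) or with transcript length and GC content corrected for (0.643%). An adjusted p under 0.10 was reached by 3 members (CHAC1, PSAT1 and TRIB3), beside 5.23% of genes lower, and a fold of 1.5 with an unadjusted p under 0.05 by those and ATF3, beside 8.20%.

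**Figure D5:**
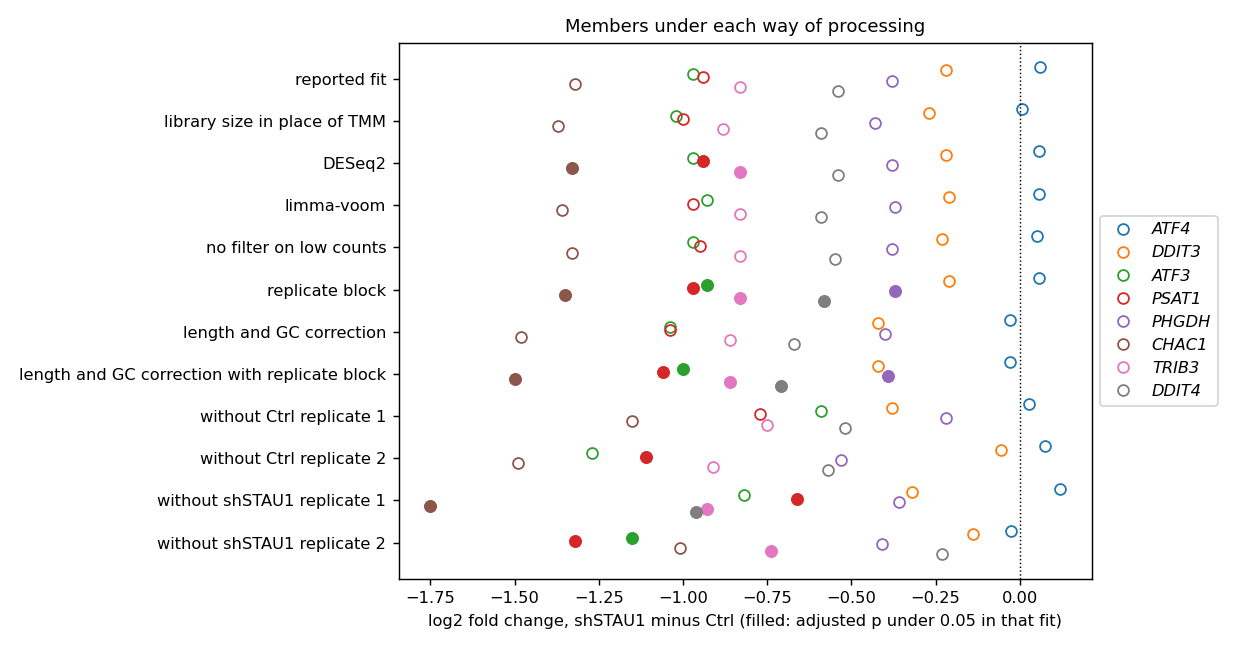
Log2 fold change (shSTAU1 minus Ctrl) of the 8 tested members under each way of processing, with filled circles where the adjusted p was under 0.05. All members but ATF4 lie below 0 in each fit, while the filled circles move between fits.

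Genes outside these lists with the pattern most like that of ATF4 over the 4 libraries were ESYT1, FARSB, ATP6V0A2, TCF12 and AKT1, chosen among 4713 genes with a mean log2 CPM over 5. Their mean absolute difference from ATF4, after each gene was centred on its mean log2 CPM, was 0.0047 to 0.013. FARSB, for example, had 100 and 102 CPM in Ctrl and 99.8 and 110 CPM in shSTAU1. With 4 libraries and a nearly level pattern, many genes come close to it.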

How the data were processed

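RNA-sequencing libraries were made with an exome-capture kit from 2 Ctrl and 2 shSTAU1 samples. The authors deposited whole-number raw counts for each gene, which they had not normalized. The submitters' processing notes name Partek and the build hg38, while the aligner, annotation release and strand setting are not given in the sources used here. Capture enriches coding exons, which can affect levels between genes more than fold changes of 1 gene.

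The 10 members and all lists were chosen with earlier results of these data known. Gene identifiers were matched to symbols by Ensembl identifier without version, and positions and lengths come from GENCODE 29 (99.868% of counts). The main test was that of edgeR 4.0.16 under R 4.3.3 (filterByExpr, TMM, quasi-likelihood test, Benjamini-Hochberg adjustment, threshold 0.05). The biological coefficient of variation was 19.1%. CPM and RPKM were computed here from the deposited counts. Alternatives were library size in place of TMM, DESeq2 1.42.0, limma-voom (limma 3.58.1), no filter, a block for the replicate number, an adjusted p under 0.10, a fold of 1.5 with unadjusted p under 0.05, leaving out each library, and offsets that correct for the length and GC content of transcripts. The script was tested on simulated data first. The replicates of a group differed by more than counting noise (chi-square over degrees of freedom 23.4 in Ctrl and 56.4 in shSTAU1), so all 4 were kept. Floors of 3 counts cover counting error only.

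Named were all members, STAU1, genes of the lists (those past the threshold, else up to 4 a list with the smallest p, with others allowed), and the 5 genes nearest to ATF4 in pattern. Promoter windows are RefSeq's (GRCh38.p14).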

Additional observations from a re-analysis of the deposited data

How the results depend on the processing

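STAU1 stayed lower and past the threshold throughout (-2.64 to -2.55, and -2.61 to -2.58 with 1 library left out). The median log2 fold change of the members kept its sign, at -0.78 to -0.68 across the scalings and models and -0.74 to -0.56 with 1 library left out. Counts of calls moved. Against 372 genes, 0 members and 1 other pathway gene, DESeq2 gave 1449, 3 and 12, a threshold of 0.10 gave 1585, 3 and 13, and a fold of 1.5 with unadjusted p under 0.05 gave 2098, 4 and 8. The members were all lower, while 4 of the 12, 5 of the 13 and 3 of the 8 other pathway genes were higher. Without a filter there were 11 genes over more genes tested, and with the length and GC correction 137, with 0 members and 0 other pathway genes in both. Library size and limma-voom gave 404 and 363 genes and 0 members. Leaving out 1 library gave 214 to 2625 genes, 0 to 4 members and 2 to 18 other pathway genes, where the lone library is assumed to vary like the other group. The low ends are without Ctrl replicate 1, and the high ends are without shSTAU1 replicate 1. The cause was not tested.

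The groups share replicate numbers, but no source says that a number marks a batch, and libraries with the same number deviated together only in part (correlation 0.271). Under the replicate block 4087 genes had an adjusted p under 0.05, 2208 higher and 1879 lower (13.1% of tested genes lower). Among them were 6 members, all lower (ATF3, CHAC1, DDIT4, PHGDH, PSAT1 and TRIB3), and 25 other pathway genes, 12 higher and 13 lower. With the block and the length and GC correction the counts were 2923 genes (9.48% lower), 6 members and 20 other pathway genes, 9 higher and 11 lower.

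Fold changes of 5 named genes changed sign. ATF4 was at -0.028 with the length and GC correction, -0.030 with the block as well, and -0.025 to 0.12 with 1 library left out. EIF2AK2 was at 0.10 with the correction, with and without the block, and at -0.21 to 0.10 with 1 library left out. With 1 library left out, EIF2AK3 ran from -0.19 to 0.029, JDP2 (8 to 38 counts a library) from -0.040 to 2.06 and TRIB1 from -0.080 to 0.42. For 59 named genes the alternatives gave 765 fold changes: 579 stayed on their side of the threshold, 174 crossed to under it, 2 (both STC2) lost it and 10 changed sign. CHAC1, DDIT3 and ATF3 had 47 to 169, 146 to 187 and 111 to 291 counts a library, with SEs of 0.36, 0.27 and 0.32. The part of low counts in these SEs was not tested. ASNS and SESN2 had too few counts for a comparison, and the cause was not tested.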
